A study of Mus musculus with 24 samples.

Results

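The genes examined were 4 Nudix hydrolases, Nudt1, Nudt5, Nudt16 and Nudt18, chosen by symbol from the 55254 genes of the count tables because their proteins clear, or are proposed to clear, oxidized nucleotides. The rule itself uses no measured value. Reactive oxygen species oxidize guanine both within DNA and in the pool of free nucleotides, and polymerases can insert the oxidized guanine nucleotide opposite adenine. Nudix hydrolases cleave a nucleoside diphosphate linked to another group, and those that accept oxidized nucleotides keep them out of DNA and RNA. Ogg1 removes 8-oxoguanine already in DNA, whereas Mutyh removes the adenine paired with it. Hydrolases that clear oxidized guanine nucleotides act before these DNA glycosylases in the same line of defence. Nudt1, also called MTH1, hydrolyses 8-oxo-dGTP to its monophosphate. Nudt5 cleaves ADP-ribose and also acts on 8-oxo-dGDP. Nudt16 acts on inosine and deoxyinosine diphosphates and removes RNA caps, and Nudt18, also called MTH3, acts on 8-oxo-dGDP.

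Nuclear RNA was measured in hippocampi of male C57BL/6N mice aged 6 months. Nuclei were fixed with formaldehyde and sorted by staining for NeuN, a neuronal nuclear protein, into NeuN+ and NeuN- fractions. In each fraction 3 replicates of WT, Mutyh-/-, Ogg1-/- and the Ogg1-/- x Mutyh-/- double knockout (DKO) were sequenced, 24 libraries in 8 groups, to ask whether loss of either glycosylase or both altered RNA levels. Nuclei of several animals of one genotype were pooled for a sample, and the deletions are present in all cells of the animal. The study's methods describe replicates in general as independent and biological, but the labels do not tie each library to its own pool of animals, so p-values measure only the spread between these samples. The labels place the NeuN+ and the NeuN- libraries on separate lanes, and a lane effect cannot be told apart from one of cell type.

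Libraries held between 56563586 and 96192142 counts, with a median of 70434612. In WT, 5 of 5 neuronal markers were higher in NeuN+ nuclei, by 1.85 to 4.02 on the log2 scale, and the astrocyte, oligodendrocyte, precursor, microglial and endothelial markers were all higher in NeuN- nuclei, as were 2 of 3 choroid plexus markers. Gene counts cover whole genes and not the deleted part alone, so a deletion itself cannot be read from them. The Mutyh count was higher in the libraries labelled Mutyh-/- and DKO than in WT, at 9.88 to 11.5 and 8.47 to 12.2 against 1.15 to 1.28 CPM (counts in 1000000 of the scaled library total) in NeuN+ nuclei. In NeuN- nuclei it was 9.28 to 9.71 and 6.65 to 9.22 against 2.39 to 2.82 CPM. Libraries labelled Ogg1-/- had 1.15 to 1.41 CPM in NeuN+ and 2.92 to 3.29 CPM in NeuN- nuclei. The Mutyh count thus set apart the labels that include Mutyh loss in both fractions. For Ogg1, NeuN+ levels were 3.21 to 3.66 CPM in libraries labelled Ogg1-/- and 2.77 to 3.77 CPM in WT, overlapping ranges. Genotypes are therefore given here as labelled.

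The members lie on 4 chromosomes of the GRCm38 genome. Nudt1 spans chr5:140321656-140338137 on the plus strand, and 2 genes on the opposite strand lie in its span, Mrm2 whole and Gm43338 all but its end. Nudt5 spans chr2:5845019-5871895 on the plus strand, contains the small gene Gm13199 and overlaps the ends of Cdc123 and Sec61a2 by 146 and 909 bases. Nudt16 spans chr9:105128903-105131824 on the minus strand and Nudt18 spans chr14:70577637-70582688 on the plus strand, and neither overlaps another annotated gene. These overlaps bear on the counts. Among gene pairs in which one gene lies within an intron of another on the opposite strand, and has at least 20 counts in all 24 libraries, the outer gene's count was at least that of the inner gene in all 24 libraries for 1324 of 1326 pairs. The counts therefore behave as sums over whole gene spans on both strands, and a read in Mrm2 was also counted for Nudt1.

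Promoter sequence is shown for the genes that differed between NeuN+ and NeuN- nuclei, Nudt16 and Nudt1, as given by RefSeq for GRCm38.p6 upstream of the gene, and for Nudt1 back to its neighbour Mad1l1. Capitals mark motif matches on either strand.
Nudt16, chr9:105131825-105132055, minus strand: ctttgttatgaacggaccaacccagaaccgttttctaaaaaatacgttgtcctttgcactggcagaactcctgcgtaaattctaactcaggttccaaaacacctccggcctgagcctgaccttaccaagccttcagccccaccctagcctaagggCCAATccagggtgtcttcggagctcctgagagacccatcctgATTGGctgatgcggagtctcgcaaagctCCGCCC
Nudt1, chr5:140321553-140321621, plus strand: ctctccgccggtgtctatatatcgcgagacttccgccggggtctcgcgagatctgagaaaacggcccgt

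The motifs searched, on both strands, were the GC box GGGCGG, the CCAAT box CCAAT, the TATA box TATAAA and the core of the antioxidant response element, TGACNNNGC. In the 231 bases upstream of Nudt16 there were 2 CCAAT boxes, 1 of them on the reverse strand, and 1 GC box on the reverse strand. Of 32851 promoters, 32.3% held a CCAAT box and 30.0% a GC box in a window of the same position and length. Neither TATAAA nor TGACNNNGC, found in 11.8% and 9.24% of such windows, occurred there. The 69 bases upstream of Nudt1 held none of the 4 motifs, which were found in 3.32% to 20.4% of equal windows, but held 10 CpG dinucleotides, against a median of 2. For Nudt16 the CpG number was 9, with a median of 5. The table of promoters held 2 more Nudt1 starts, inside the gene at positions 140331860 and 140331956, and a Nudt5 start at position 5845034 of chromosome 2.

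Levels were compared as CPM, scaled across the 24 libraries by the trimmed mean of M values (TMM). In WT nuclei the 4 genes were present at low to moderate levels. Nudt5 had 21.9, 19.7 and 22.6 CPM in the 3 NeuN+ libraries and 20.1, 20.9 and 21.3 CPM in the NeuN- libraries. Nudt1 had 3.21, 3.48 and 3.35 CPM in NeuN+ and 5.62, 6.11 and 5.23 CPM in NeuN- nuclei. Nudt1 was thus higher in every NeuN- library, while the Nudt5 ranges overlapped. Nudt16 had 1.62, 1.51 and 1.67 CPM in NeuN+ and 3.03, 2.54 and 2.11 CPM in NeuN- nuclei, again without overlap. In WT the libraries of the fractions did not overlap for 76.1% of all genes. Nudt18 had 2.82, 3.99 and 2.91 CPM in NeuN+ and 3.06, 2.65 and 3.22 CPM in NeuN- nuclei, with overlap. The counts behind these levels in the 24 libraries ran from 70 to 302 for Nudt16 and from 137 to 305 for Nudt18, from 160 to 612 for Nudt1 and from 1214 to 2159 for Nudt5.

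Compared per length of gene span, which fits how the counts were made, Nudt5 stood at 0.796 and 0.772 CPM per kb in WT NeuN+ and NeuN- nuclei, higher than 61.8% and 62.1% of 32426 genes. Nudt16 stood at 0.547 and 0.876 CPM per kb, higher than 52.4% and 65.9% of genes. Nudt18 stood at 0.641 and 0.589 CPM per kb. On this scale Nudt1 was lowest of the 4 in both fractions, at 0.203 and 0.343 CPM per kb. The order depended on the length used. Per kb of exon Nudt1 reached 2.27 and 3.84 CPM, close to Nudt5 at 3.30 and 3.20 CPM and above Nudt16 (0.617 and 0.988) and Nudt18 (0.729 and 0.670).

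**Figure D1:**
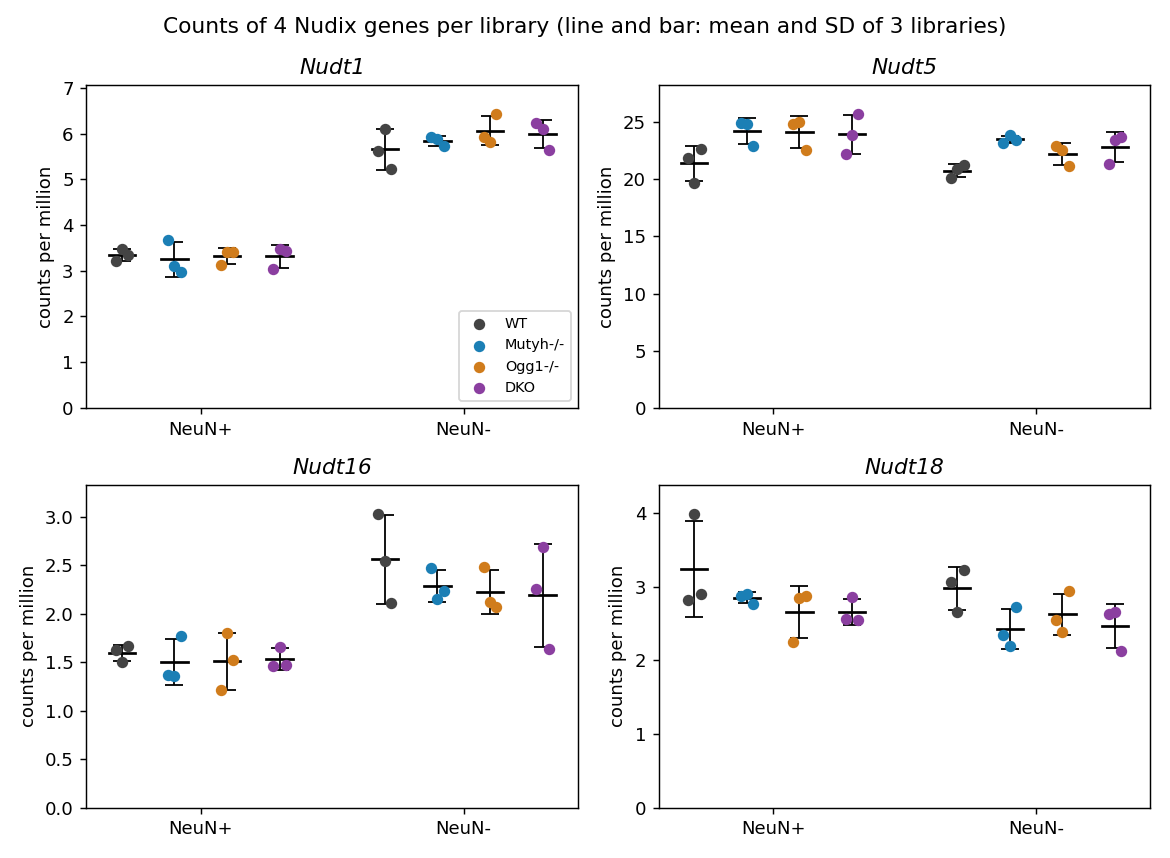
CPM of Nudt1, Nudt5, Nudt16 and Nudt18 in each of the 24 libraries (points) with group means and standard deviations over 3 replicates, by genotype, in NeuN+ and NeuN- nuclei. Each panel has its own scale: Nudt5 lay near 20 to 26 CPM in both fractions, and Nudt1 and Nudt16 lay lower in NeuN+ than in NeuN- nuclei.

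The cell fractions were compared to ask which members had unequal levels in neuronal and non-neuronal nuclei. In these bulk samples, fewer cells of a type and less RNA per cell cannot be told apart. Nudt1 was lower in NeuN+ than in NeuN- WT nuclei by 0.75 on the log2 scale (SE 0.09, 3 libraries each), a ratio of 0.593, with an adjusted p of 7.4e-08 by the quasi-likelihood test of edgeR, adjusted by Benjamini-Hochberg over 33523 genes. Nudt16 was lower by 0.68 (SE 0.17, adjusted p = 0.0011). The values for Nudt5 and Nudt18 were 0.04 (SE 0.06, 95% interval -0.09 to 0.18) and 0.12 (SE 0.14, -0.16 to 0.40), with adjusted p of 0.556 and 0.437. A call between fractions needed an adjusted p under 0.05 and a difference beyond 1 on the log2 scale. By its full count no member was called, while 42.9% of all genes tested were. By the adjusted p alone 2 of 4 members passed, both lower in NeuN+ nuclei, and 72.4% of all genes did, 36.3% in that direction. The members' share lies near a background in which most genes differ between the fractions.

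The same pair of genes differed in the other genotypes. Nudt1 was lower in NeuN+ nuclei by 0.85 in Mutyh-/-, 0.86 in Ogg1-/- and 0.85 in DKO on the log2 scale, and its NeuN+ and NeuN- libraries did not overlap in any of the 4 genotypes. Nudt16 was lower by 0.60, 0.55 and 0.52, without overlap in Mutyh-/- and Ogg1-/-, but in DKO the lowest NeuN- library, at 1.63 CPM, lay below the highest NeuN+ library, at 1.66 CPM. Both passed the adjusted p in 4 of 4 genotypes (highest 0.0099, edgeR). Over all genes, 73.0%, 73.3% and 73.9% passed it in Mutyh-/-, Ogg1-/- and DKO, and 75.1%, 76.1% and 74.5% did not overlap. Nudt5 and Nudt18 gave 0.04 to 0.12 and 0.02 to 0.23 over the 4 genotypes, with no adjusted p under 0.0977.

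Because reads of Mrm2, a mitochondrial rRNA methyltransferase gene, and of Gm43338 were also counted for Nudt1, the Nudt1 count was taken apart. The Mrm2 count equalled 39.4% to 55.7% of the Nudt1 count in NeuN+ libraries and 32.4% to 41.0% in NeuN- libraries. For Gm43338 the shares were 6.28% to 19.7% and 9.42% to 14.5%. By the same counting, Nudt1 reads from the shared bases also enter the counts of Mrm2 and Gm43338. These shares are therefore upper limits for the reads of the 2 genes, and subtracting them may remove Nudt1 reads too. The counts left after subtracting both were 71 to 116 in NeuN+ and 194 to 299 in NeuN- libraries, 1.15 to 1.57 and 2.69 to 3.27 CPM. The Mrm2 count, with any Nudt1 reads in it, ranged from 1.32 to 1.91 CPM in NeuN+ and from 1.77 to 2.48 CPM in NeuN- nuclei. The remaining Nudt1 signal was lower in NeuN+ than in NeuN- WT nuclei by 1.08 (SE 0.10, edgeR adjusted p = 2.1e-09), and by 1.09, 1.16 and 1.20 in Mutyh-/-, Ogg1-/- and DKO. The difference was thus larger in the part of Nudt1 outside its antisense genes than in the whole gene. With the subtraction, which was chosen after seeing the data, Nudt1 met the limit for a call between fractions in all 4 genotypes. With its full count it did so in none. For Nudt5, the contained gene Gm13199 held 3.65% to 7.06% of the count. The genes that overlap its ends had larger counts than Nudt5 itself. Sec61a2 had 310% to 372% of the Nudt5 count in NeuN+ and 183% to 221% in NeuN- libraries, and Cdc123 158% to 179% and 171% to 206%. Counts per gene do not show how many of those reads lie in the shared bases, so the Nudt5 levels may include an unknown share of them.

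**Figure D2:**
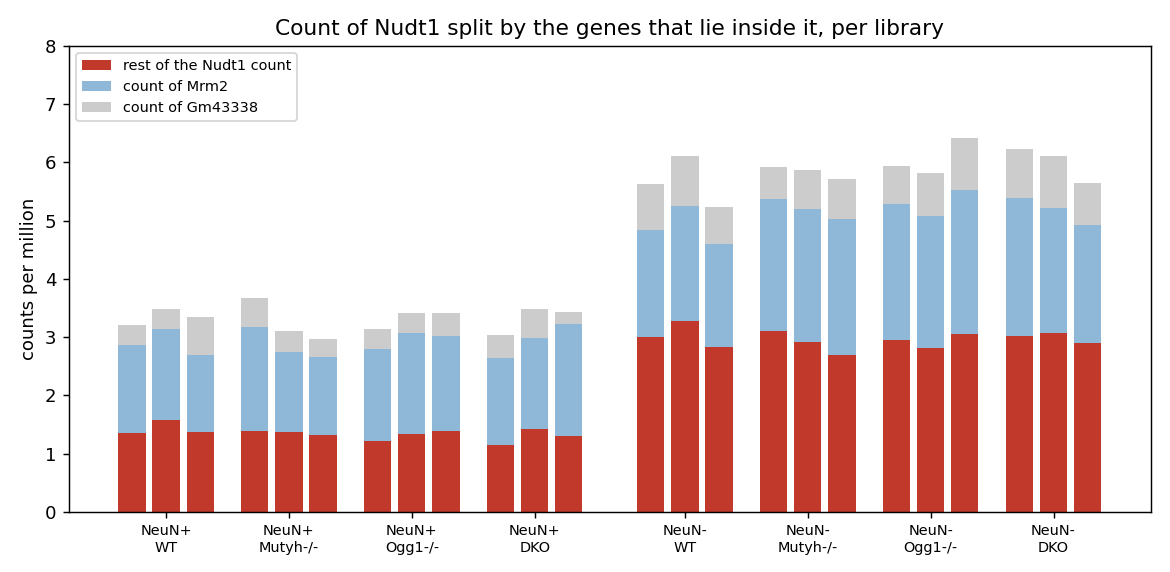
CPM of the Nudt1 count in each library, split into the counts of Mrm2, of Gm43338 and the rest of the gene. The rest lies between 1.15 and 1.57 CPM in NeuN+ libraries and between 2.69 and 3.27 CPM in NeuN- libraries, with no clear step between genotypes.

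Loss of the glycosylases was then compared with WT within each fraction, where a call needed an adjusted p under 0.05 and a log2 fold change beyond 0.5. None of the 4 members was called in any of the 6 comparisons with WT by edgeR, nor by DESeq2 or a likelihood ratio test, and 7 of the 24 unadjusted p-values were under 0.05. An unadjusted p under 0.05 was reached by 18.7%, 12.3% and 13.5% of all genes in NeuN+ Mutyh-/-, Ogg1-/- and DKO and by 13.7%, 11.8% and 12.4% in NeuN- nuclei. In NeuN+ nuclei the calls over all 30132 genes tested amounted to 0.428% in Mutyh-/-, 0.574% in Ogg1-/- and 0.302% in DKO. In NeuN- nuclei, with 31863 genes tested, they amounted to 0.273%, 0.229% and 0.116%. With calls this rare, no call among 4 genes does not set them apart. The 3 comparisons of a fraction share its WT libraries, so the direction of one is not independent of the others.

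Nudt1 levels lay close to WT. In NeuN+ nuclei it had 3.68, 3.10 and 2.97 CPM in Mutyh-/-, 3.13, 3.42 and 3.42 CPM in Ogg1-/- and 3.03, 3.48 and 3.43 CPM in DKO, beside 3.21 to 3.48 CPM in WT. In NeuN- nuclei it had 5.92, 5.88 and 5.72 CPM in Mutyh-/-, 5.94, 5.82 and 6.42 CPM in Ogg1-/- and 6.23, 6.11 and 5.64 CPM in DKO, beside 5.23 to 6.11 CPM in WT. All knockout groups overlapped WT. The log2 fold changes were -0.04, -0.03 and -0.03 in NeuN+ nuclei and 0.04, 0.09 and 0.08 in NeuN- nuclei, with 95% intervals reaching from -0.27 to 0.26 and no adjusted p under 0.713. As ratios to WT those intervals span 0.830 to 1.20. With the counts of Mrm2 and Gm43338 subtracted, the values were -0.07, -0.13 and -0.15 in NeuN+ and -0.07, -0.05 and -0.03 in NeuN- nuclei, so that the sign turned in NeuN- nuclei and again no test was passed. The neighbour within it, Mrm2, gave 0.29, 0.33 and 0.23 in NeuN- nuclei, with unadjusted p of 0.0113, 0.0057 and 0.0401 and no adjusted p under 0.216.

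Nudt5 gave the lowest p-values of the 4. In NeuN+ nuclei Mutyh-/- libraries had 24.9, 24.8 and 22.9 CPM, all above the WT libraries at 19.7 to 22.6 CPM. Ogg1-/- libraries had 24.8, 25.02 and 22.5 CPM and DKO libraries 22.2, 23.9 and 25.7 CPM, and in each of these groups the lowest library lay within the WT range. In NeuN- nuclei Mutyh-/- libraries had 23.2, 23.8 and 23.4 CPM, all above the WT libraries at 20.1 to 21.3 CPM. Ogg1-/- libraries had 22.9, 22.5 and 21.1 CPM, the lowest within the WT range, and DKO libraries 21.3, 23.4 and 23.7 CPM, all above WT, the lowest by less than the rounding shown. Knockout libraries without overlap above WT were found for 10.4% of all genes in NeuN+ Mutyh-/-, 9.75% in NeuN- Mutyh-/- and 8.44% in NeuN- DKO.

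The Nudt5 log2 fold changes were 0.18 (SE 0.07), 0.16 (SE 0.07) and 0.15 (SE 0.07) in NeuN+ Mutyh-/-, Ogg1-/- and DKO nuclei and 0.17, 0.09 and 0.13 (SE 0.05 each) in NeuN- nuclei. These are ratios of 1.06 to 1.14. The unadjusted p-values were 0.0224 and 0.0457 for Mutyh-/- and Ogg1-/- in NeuN+, and 0.00793 and 0.0312 for Mutyh-/- and DKO in NeuN- nuclei, and the lowest adjusted p was 0.192 (edgeR). An unadjusted p under 0.05 with a higher level was reached by 9.48% and 5.01% of all genes in the former pair of comparisons and by 6.78% and 6.06% in the latter. Nudt5 therefore did not pass in either fraction, and the upper bound of its intervals was 0.34. Its lowest adjusted p over 16 ways of processing the data was 0.0900, in NeuN+ Mutyh-/- without replicate 3 of that group.

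**Figure D3:**
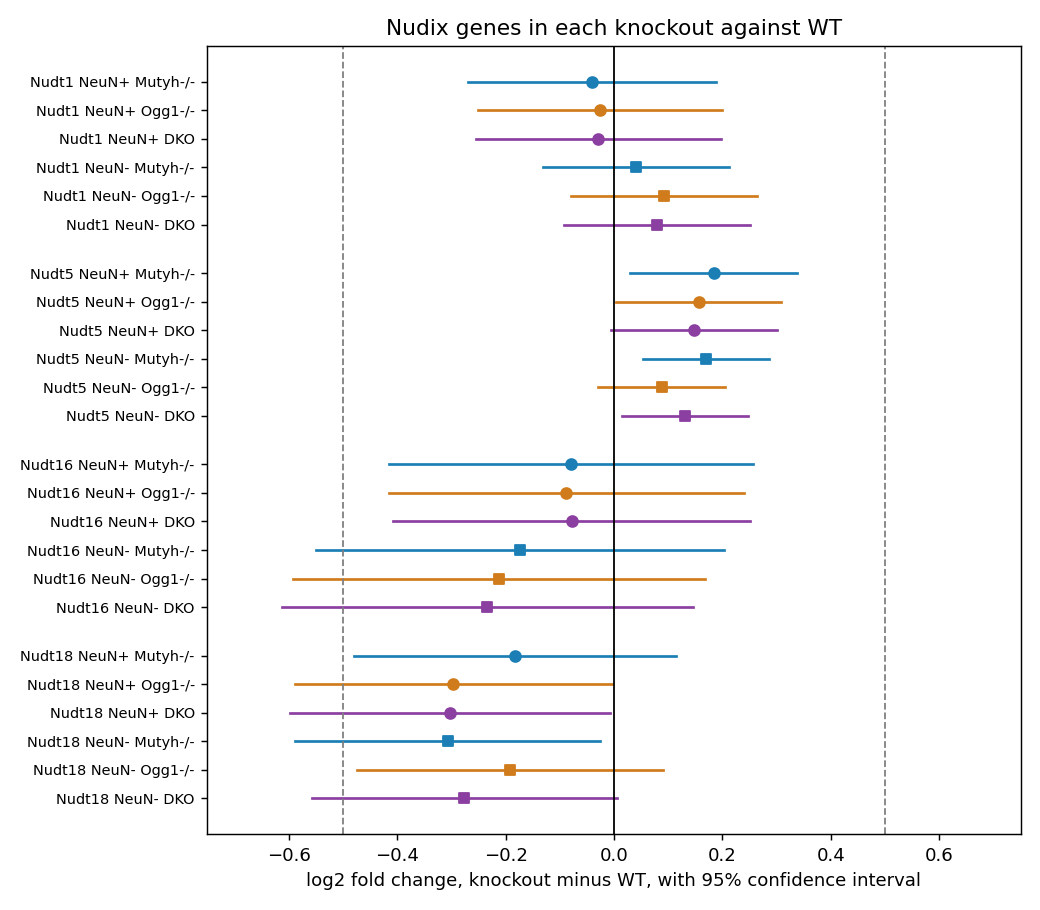
Log2 fold change of the 4 members in each knockout against WT, with 95% confidence intervals, in NeuN+ and NeuN- nuclei (3 libraries per group). All 24 estimates lie between -0.31 and 0.18, inside the limit of 0.5, and no member passed the adjusted p.

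Nudt16 levels were low and overlapped throughout. In NeuN+ nuclei they were 1.37, 1.36 and 1.77 CPM in Mutyh-/-, 1.21, 1.80 and 1.52 CPM in Ogg1-/- and 1.46, 1.66 and 1.47 CPM in DKO, beside 1.51 to 1.67 CPM in WT. In NeuN- nuclei they were 2.47, 2.15 and 2.23 CPM in Mutyh-/-, 2.48, 2.12 and 2.07 CPM in Ogg1-/- and 2.25, 2.69 and 1.63 CPM in DKO, beside 2.11 to 3.03 CPM in WT. The WT library with 3.03 CPM was the highest of the NeuN- libraries. The log2 fold changes were -0.08, -0.09 and -0.08 in NeuN+ and -0.17, -0.21 and -0.23 in NeuN- nuclei, with intervals from -0.61 to 0.26 and no adjusted p under 0.611 (edgeR). Without the first WT replicate the NeuN- values for Mutyh-/- and Ogg1-/- were -0.04 and -0.07, and without the third DKO replicate the NeuN- value for DKO was -0.07. A library held 70 to 302 counts of the gene.

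Nudt18 had 2.87, 2.90 and 2.76 CPM in Mutyh-/-, 2.25, 2.85 and 2.87 CPM in Ogg1-/- and 2.56, 2.86 and 2.54 CPM in DKO NeuN+ nuclei, beside 2.82, 3.99 and 2.91 CPM in WT. The second WT library stood above all others. In NeuN- nuclei Nudt18 had 2.34, 2.20 and 2.72 CPM in Mutyh-/-, 2.55, 2.39 and 2.94 CPM in Ogg1-/- and 2.63, 2.66 and 2.12 CPM in DKO, beside 2.65 to 3.22 CPM in WT. Each knockout group overlapped WT in both fractions. The log2 fold changes were -0.18, -0.30 and -0.30 in NeuN+ and -0.31, -0.19 and -0.28 in NeuN- nuclei (SE 0.13 to 0.14), and the lowest adjusted p was 0.323 (edgeR). The unadjusted p was 0.0474 and 0.0447 in NeuN+ Ogg1-/- and DKO and 0.0345 in NeuN- Mutyh-/-, where 7.33%, 7.51% and 6.90% of all genes reached p under 0.05 with a lower level. Without the second WT library the NeuN+ values were 0.00, -0.12 and -0.12, so that the NeuN+ values rest on that library. The NeuN- values ranged from -0.40 to -0.13 when single libraries were left out.

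The knockouts were also set against each other, to ask whether loss of Ogg1, Mutyh or both gave different levels. The 24 differences (6 per member) lay between -0.12 and 0.12 on the log2 scale, with no unadjusted p under 0.154, no adjusted p under 0.625 (edgeR) and intervals reaching from -0.44 to 0.40. Of all genes 0.216%, 0.139% and 0.485% were called in NeuN+ nuclei (DKO against Ogg1-/-, DKO against Mutyh-/- and Ogg1-/- against Mutyh-/-) and 0.132%, 0.122% and 0.521% in NeuN- nuclei. The groups did not overlap in 1 of the 24, Nudt5 in NeuN- nuclei, as they did not for 7.86% of all genes in that direction, where Ogg1-/- libraries (21.1 to 22.9 CPM) lay below Mutyh-/- libraries (23.2 to 23.8 CPM) with a log2 difference of -0.08. Whether the double knockout departed from the sum of the single knockouts was tested as a contrast of all 4 genotypes. The departure was -0.19 and -0.13 for Nudt5, and between -0.05 and 0.22 for the other members, with no unadjusted p under 0.0765 and no adjusted p under 0.640, and 0.159% and 0.119% of all genes were called in NeuN+ and NeuN- nuclei.

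Genotype effects did not differ measurably between the fractions. The effect in NeuN+ minus that in NeuN- nuclei was -0.11 to -0.09 for Nudt1, 0.00 to 0.08 for Nudt5, 0.08 to 0.16 for Nudt16 and -0.10 to 0.11 for Nudt18. The lowest of the 12 unadjusted p-values was 0.385 and the lowest adjusted p 0.856, and the intervals reached from -0.50 to 0.67. Of all genes tested, 0.0209%, 0.0537% and 0.0567% passed the adjusted p for such a difference in Mutyh-/-, Ogg1-/- and DKO.

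Beside the members, 42 genes of related function were examined as 4 lists: 18 other Nudix genes, 4 genes of nucleotide pool control, 9 genes of ADP-ribose turnover and 12 genes of 8-oxoguanine repair, with Nudt9 on 2 lists. Against WT the only gene called was Mutyh, in the libraries labelled Mutyh-/- and DKO, with log2 fold changes of 3.15 and 2.99 in NeuN+ and 1.85 and 1.61 in NeuN- nuclei. In no comparison with WT did the median of a list leave the range from -0.10 to 0.05, beside medians of all genes between -0.01 and 0.01. The medians of the 4 members lay between -0.08 and -0.05.

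Other Nudix genes include Nudt10, which encodes a diphosphoinositol polyphosphate phosphohydrolase. In NeuN+ nuclei it had 6.50, 6.56 and 6.74 CPM in WT, 5.56, 4.84 and 5.24 CPM in Ogg1-/- and 4.99, 5.38 and 4.71 CPM in DKO. It fell by 0.36 in Ogg1-/- (SE 0.08, adjusted p = 0.0464) and by 0.41 in DKO (SE 0.08, adjusted p = 0.0412) in edgeR's test, short of the limit of 0.5. In Mutyh-/-, at 5.92, 6.00 and 5.80 CPM, the value was -0.16 with an adjusted p of 0.322. All knockout libraries lay below WT. Taken 1 knockout at a time, this held for 11.2%, 8.98% and 8.35% of all genes in NeuN+ Mutyh-/-, Ogg1-/- and DKO. The adjusted p stayed under 0.05 in 8 of 16 ways of processing for Ogg1-/- and 9 of 16 for DKO. Nudt10 has a nearly identical copy, Nudt11, and the counting could divide reads between them, so these values are uncertain. In NeuN+ nuclei Nudt11 had means of 7.37 CPM in WT, 7.48 CPM in Mutyh-/-, 7.42 CPM in Ogg1-/- and 7.41 CPM in DKO. Of the other 17 Nudix genes none passed in a comparison with WT.

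Among genes of ADP-ribose turnover, the substrate that Nudt5 cleaves, Macrod2, which removes ADP-ribose from proteins, had 423, 428 and 431 CPM in WT NeuN- nuclei. It had 347, 336 and 344 CPM in Mutyh-/-, 350, 360 and 351 CPM in Ogg1-/- and 369, 361 and 336 CPM in DKO, all below WT. Taken 1 knockout at a time, 9.49%, 9.84% and 8.40% of all genes lay below WT without overlap in these NeuN- groups. Macrod2 fell by 0.33, 0.28 and 0.27 (SE 0.04 each, edgeR adjusted p = 0.0075, 0.016 and 0.0379), short of the limit of 0.5, and the adjusted p stayed under 0.05 in 14, 10 and 9 of 16 ways of processing. In NeuN+ nuclei the values were -0.17, -0.14 and -0.16, with adjusted p from 0.0779 to 0.187. In NeuN- nuclei the 4 astrocyte markers summed to 683 to 747 CPM in WT, 650 to 793 CPM in Mutyh-/-, 805 to 906 CPM in Ogg1-/- and 758 to 858 CPM in DKO. The 4 oligodendrocyte markers summed to 5094 to 5908 CPM in WT, 4705 to 5731 CPM in Mutyh-/-, 4370 to 4752 CPM in Ogg1-/- and 3711 to 4883 CPM in DKO. Both sums overlapped WT in Mutyh-/-, where Macrod2 had its largest fall, and neither did in Ogg1-/- or DKO. Macrod2 was itself higher in NeuN+ than in NeuN- WT nuclei, by 1.74 on the log2 scale. All 5 neuronal markers were lower than WT in the NeuN- nuclei of every knockout. Their log2 fold changes lay between -0.48 and -0.04, and none passed the adjusted p. The summed neuronal markers had 309 to 377 CPM in NeuN- WT libraries, a range that each knockout overlapped. What part any of these marker sets had in the Macrod2 values was not tested.

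In the nucleotide pool list, Samhd1, a dNTP triphosphohydrolase, had the smallest p, with values of -0.25 and -0.27 in NeuN+ Mutyh-/- and DKO (adjusted p = 0.148 and 0.183, edgeR). Of the repair genes, the replication clamp Pcna had 3.23, 3.45 and 2.68 CPM in WT and 2.22, 2.28 and 1.88 CPM in DKO NeuN+ nuclei, a difference of -0.57 (SE 0.12) with an adjusted p of 0.0623. The flap endonuclease gene Fen1 gave -0.54 (SE 0.15, adjusted p = 0.129) in the same comparison. Pcna passed in 5 of 16 ways of processing, with the likelihood ratio test (adjusted p = 0.0049), DESeq2 (0.010), no filter on low counts (0.023), a replicate block (0.030) and one fit of all libraries (0.047), and Fen1 in 1, the likelihood ratio test (0.0498).

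Between WT fractions the 42 listed genes had log2 differences from -2.67 to 1.74. An adjusted p under 0.05 was reached by 36 of them, beside 72.4% of all genes tested, made up of 36.1% that were higher and 36.3% that were lower in NeuN+ nuclei. Of the other 18 Nudix genes 5 were higher and 9 lower in NeuN+ nuclei. Nudt7, a peroxisomal coenzyme A diphosphatase, was lower by 2.67, and Nudt4, a relative of Nudt10, was lower by 1.32, whereas Nudt10 was higher by 1.04. Of the 12 repair genes 3 were higher and 9 lower, among them Mutyh, lower by 1.08, and Ogg1, lower by 0.90. Ogg1, Mutyh, Nudt1 and Nudt16 were therefore all at lower levels in NeuN+ than in NeuN- WT nuclei. Of the 9 ADP-ribose genes 3 were higher, led by Macrod2 at 1.74 and Parp1 at 1.02, and 5 were lower, and of the 4 pool genes Itpa (0.55) and Dut (0.54) were higher and Samhd1 was lower by 1.28.

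**Figure D4:**
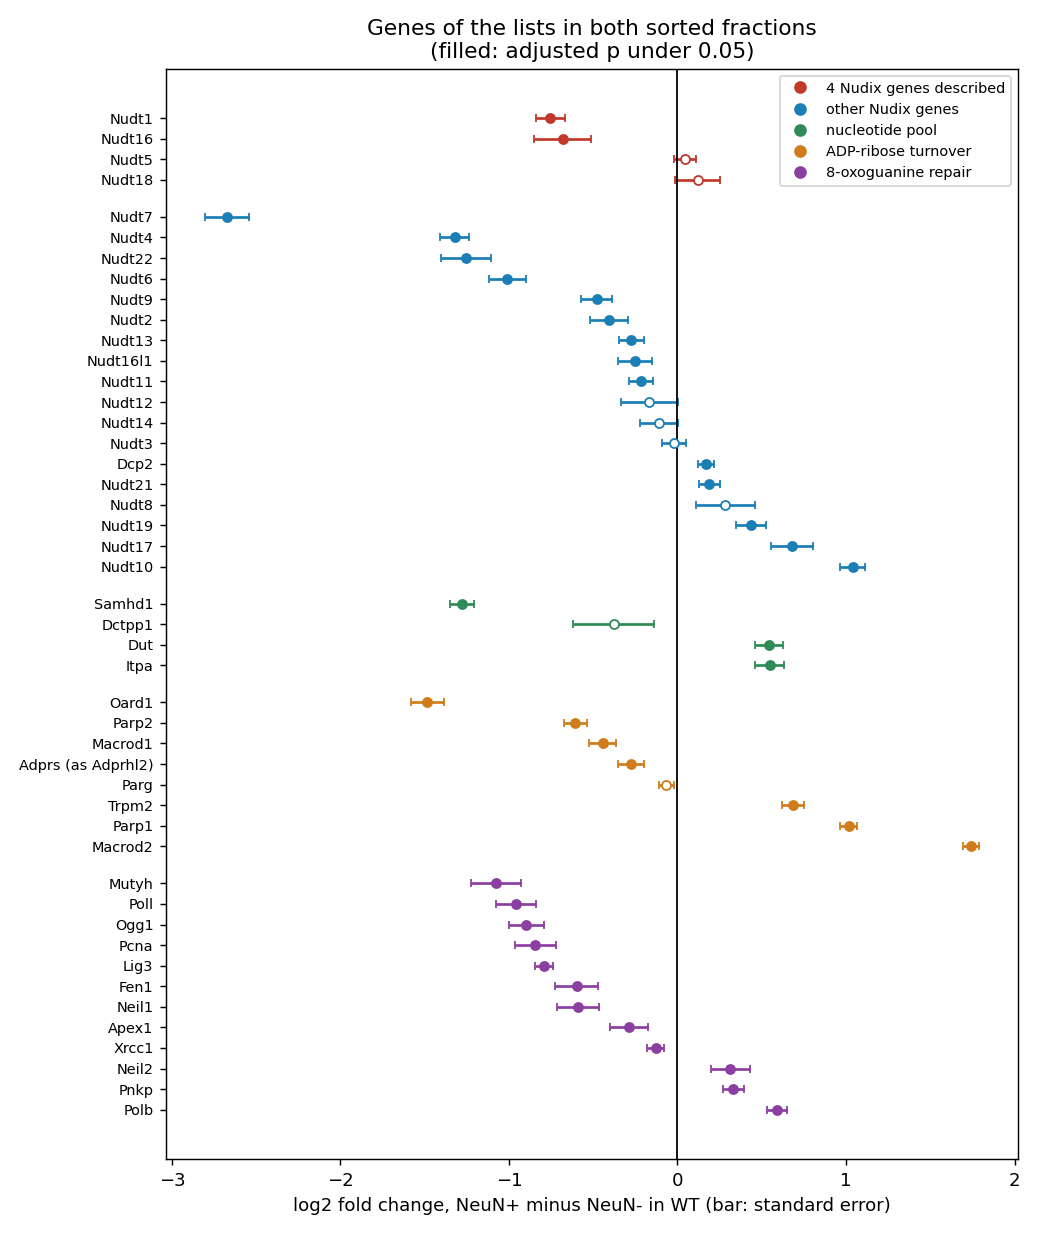
Log2 difference between NeuN+ and NeuN- WT nuclei (NeuN+ minus NeuN-, with standard errors from edgeR) of the 4 members and of the genes of the 4 lists, with Nudt9 drawn once and filled points for an adjusted p under 0.05. Nudt1 (-0.75) and Nudt16 (-0.68) lie left of 0 with filled points, Nudt5 and Nudt18 are open points near 0, and the listed genes spread from -2.67 (Nudt7) to 1.74 (Macrod2).

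Genes near the members were examined to see whether differences from WT were found around them. The 6 genes that overlap a member or start within 10 kb of one (Mad1l1, Gm43338, Mrm2, Cdc123, Gm13199 and Sec61a2) gave log2 fold changes from -0.32 to 0.33, and none passed. No gene within 1 Mb of Nudt1, Nudt5 or Nudt16 was called in a comparison with WT, and none near Nudt18 in Ogg1-/- or DKO. In Mutyh-/- nuclei 5 of 38 tested genes within 1 Mb of Nudt18 were called in NeuN+ and 4 of 39 in NeuN- nuclei, all higher than in WT. One of them, the histone chaperone gene Npm2, starts within 0.1 Mb of Nudt18. It had 1.67, 1.60 and 1.72 CPM in WT and 3.24, 2.87 and 2.39 CPM in Mutyh-/- NeuN+ nuclei, higher by 0.77 (adjusted p = 0.0372, edgeR), while Nudt18 itself did not pass. Npm2 kept an adjusted p under 0.05 in 10 of 16 ways of processing, and lost it with a replicate block (0.062) and when any one of the WT and Mutyh-/- libraries was left out except Mutyh-/- replicate 3. The number called depended on single libraries. Without WT replicate 1, 2 or 3 it was 2 each time in NeuN+ and 0 in NeuN- nuclei, and without Mutyh-/- replicate 1 it was 3 and 2.

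The other 4 genes called near Nudt18, Entpd4b, Gm27177, Loxl2 and Gm37513, overlap in a chain and share reads. Loxl2, a lysyl oxidase gene, had 0.649, 0.794 and 0.479 CPM in WT and 135, 98.7 and 148 CPM in Mutyh-/- NeuN+ nuclei, and 3.39, 4.13 and 3.63 against 193, 134 and 219 CPM in NeuN- nuclei. Entpd4b was higher by 1.20 and 1.36, and Gm27177 by 2.63 and 3.58. Gm37513 had 0 counts in each NeuN+ WT library and 114, 85 and 216 counts in Mutyh-/-. In DKO, Loxl2 had 28, 44 and 2767 counts in NeuN+ and 400, 320 and 4222 counts in NeuN- nuclei, so that only the third replicate of each fraction resembled Mutyh-/-. In the libraries of the third DKO replicate Nudt18 had 2.54 and 2.12 CPM, the lowest value of the DKO group in each fraction, in NeuN+ nuclei next to 2.56 CPM in the first replicate. In Mutyh-/-, where Loxl2 was higher still, the Nudt18 log2 fold change was -0.18 in NeuN+ and -0.31 in NeuN- nuclei. In Ogg1-/-, with no gene called near Nudt18, it was -0.30 and -0.19. Whether the 2 genes are linked was not tested.

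Over the 24 libraries, centred within each fraction, the members did not vary as one group. Pearson's r was -0.70 between Nudt5 and Nudt18 (Spearman -0.51) and 0.38 between Nudt16 and Nudt18, with the other 4 pairs between -0.31 and 0.16. Replicate 2 of NeuN+ WT had both the highest Nudt18 (3.99 CPM) and the lowest Nudt5 (19.7 CPM) of the 24 libraries. Values were not centred within genotypes, so differences between genotypes also enter r. How far either shaped r was not tested. These correlations are descriptions over libraries whose values share depth and scaling. With the log2 of total counts, r was 0.45 for Nudt16 and between -0.11 and 0.02 for the other members.

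The genes most like each member by the same measure, out of 28491, also differed between members. They were Dnajc4 (r of 0.81), Trim15 (0.74) and Gm48077 (0.74) for Nudt1. Its overlapping gene Mrm2 ranked 6th at 0.68, but the Mrm2 count is part of the Nudt1 count, so shared reads enter this r. For Nudt5 the most similar genes were Gm35438 (0.91), Gm19265 (0.90) and Fam151b (0.90). For Nudt16 they were Agps (0.80), Ifngr2 (0.78) and Nhlrc2 (0.77), and for Nudt18 Jund (0.83), Gm11175 (0.81) and Vti1b (0.77).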

How the data were processed

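Nuclear RNA of 24 hippocampal libraries (3 replicates in each of 8 groups) was made with a stranded total RNA kit and sequenced in pairs. Per the labels and the study's methods, the authors aligned reads with HISAT2 2.1.0 to GRCm38/mm10 after FastQC 0.11.9, processed them with SAMtools 1.10, and deposited raw counts per gene from featureCounts with the Ensembl release 102 annotation, one table per fraction. The strand and overlap settings of counting are not given in the sources used here. Total counts per library, between 56563586 and 96192142, set the counting precision.

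Counts were tested here with edgeR 4.0.16 in R 4.3.3 (TMM scaling, filterByExpr, quasi-likelihood test, Benjamini-Hochberg adjustment over all genes tested). The 4 genotypes of a fraction were fitted together for genotype comparisons, and all 24 libraries for comparisons of fractions and for differences of genotype effects between fractions. A call needed an adjusted p under 0.05 and a log2 fold change beyond 0.5 between genotypes or 1 between fractions. Each printed interval is at the 95% level. The labels give the replicates the same numbers 1 to 3 in all groups. Correlations used log2 CPM with a prior count of 2. The procedure was checked on counts simulated for the NeuN+ libraries with 200 genes changed. Those changes were larger than the limit of 0.5 and than any member's difference from WT, so the check does not cover changes as small as those of the members.

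The members and lists were chosen with earlier results of these data known. The genes named are the members, Ogg1 and Mutyh, listed genes that passed a test against WT (otherwise those with the smallest p), genes that overlap or neighbour a member, called genes within 1 Mb, markers, and the 3 genes most correlated with each member. Alternatives tried were DESeq2 1.42.0, the likelihood ratio test, size factors by relative log expression, other filters on low counts, a replicate block, other sets of libraries in the fit, leaving out each replicate, and, chosen after seeing the data, gene-span lengths and the Nudt1 count less Mrm2 and Gm43338. Gene positions came from an annotation of GRCm38 (GENCODE vM21) and promoters from RefSeq, which held no entry for Nudt18.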

Additional observations from a re-analysis of the deposited data

Results flagged for a closer look

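The rise of the Mutyh count in knockout nuclei differed between the fractions. In the libraries labelled Mutyh-/- its log2 fold change against WT was larger in NeuN+ than in NeuN- nuclei by 1.28 (adjusted p = 0.011, edgeR's quasi-likelihood test on all 24 libraries), and in DKO by 1.40 (adjusted p = 0.0018). The mean Mutyh level in WT was 1.23 CPM in NeuN+ and 2.60 CPM in NeuN- nuclei, against 10.9 and 9.44 CPM in Mutyh-/- and 9.94 and 7.97 CPM in DKO. The lower WT level in NeuN+ nuclei therefore enters this difference. The 4 Nudix genes showed no such difference.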

How the results depend on the processing

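No member passed the threshold against WT under any alternative run, and Nudt1 and Nudt16 stayed lower in NeuN+ than in NeuN- WT nuclei with an adjusted p under 0.05 in 13 of 13 ways of processing (from -1.08 to -0.70 and from -0.80 to -0.54 on the log2 scale). Numbers of genes called moved more, beside 129, 173 and 91 for Mutyh-/-, Ogg1-/- and DKO in NeuN+ and 87, 73 and 37 in NeuN- nuclei. DESeq2 called 388 (Mutyh-/-) and 173 (DKO) in NeuN+ and 231, 179 and 178 in NeuN- nuclei, and the likelihood ratio test 564, 332 and 275, and 239, 168 and 174. Without a filter on low counts 625, 308 and 252 genes were called in NeuN+ and 73 in NeuN- DKO nuclei. A replicate block gave 171 and 63 in NeuN+ and NeuN- DKO. Fitting only the 2 genotypes compared gave 272, 305 and 140 in NeuN+, and 147 (Ogg1-/-) and 10 (DKO) in NeuN- nuclei, and one fit of all libraries gave 208 in NeuN+ Mutyh-/- and 183, 145 and 137 in NeuN- nuclei. The adjusted p alone passed 331 (Ogg1-/-) and 149 (DKO) in NeuN+ and 57 (DKO) in NeuN- nuclei.

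Requiring at least 10 counts in every library left 8615 genes called between WT fractions in place of 14371, as fewer genes were tested. Of the listed genes in NeuN+ DKO nuclei, 2 in place of 1 (Mutyh, and Pcna in addition) were called by DESeq2, without the filter, with the block and in the fit of all libraries, and 3 by the likelihood ratio test, with Fen1. Less Mrm2 and Gm43338, Nudt1 in NeuN- nuclei turned from 0.040, 0.092 and 0.079 to -0.069, -0.054 and -0.025. Other causes of these shifts were not tested.

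Leaving out single replicates gave 62 to 837, 70 to 164 and 36 to 137 genes called in NeuN+ nuclei and 31 to 435 (Mutyh-/-) and 19 to 55 (DKO) in NeuN- nuclei. The Mutyh-/- numbers were highest without the third Mutyh-/- replicate, 837 and 435, and the DKO number in NeuN+ nuclei without the first DKO replicate, 137, while leaving out any one of the WT replicates 1 and 2 lowered the NeuN+ numbers of all 3 knockouts by over 1.5 times. Called genes near a member in Mutyh-/- ranged from 2 to 7 in NeuN+ and from 0 to 4 in NeuN- nuclei. Values that changed sign were those of Nudt1 in NeuN+ Mutyh-/- (-0.14 to 0.032), Ogg1-/- (-0.061 to 0.011) and DKO (-0.064 to 0.030) and NeuN- Mutyh-/- (-0.011 to 0.10), of Nudt16 in NeuN+ Ogg1-/- (-0.23 to 0.034), of Nudt18 in NeuN+ Mutyh-/- (-0.28 to 0.0026) and of Nudt18 between WT fractions (-0.056 to 0.21). Deviations from group means were correlated between the fractions for same-numbered libraries of one genotype. The correlation was positive in 12 of 12 pairs (mean r of 0.111, lowest 0.011), 6 of them over 0.1. Pairs of different number had a mean r of -0.055, with 1 of 24 over 0.1. As deviations within a group sum to 0, that negative mean follows largely from the positive one and is no separate evidence. The sources used here do not say that a number marks one pool, and the main tests did not take the numbers as pairs. Loxl2, however, was high in the third DKO replicate of both fractions (2767 and 4222 counts), so same numbers may mark matched samples. For comparisons of fractions, the replicate block pairs libraries by genotype and number. The block changed no call of a member (Nudt1 -0.75 and Nudt16 -0.67 between WT fractions), and Npm2 in NeuN+ Mutyh-/-, Nudt10 in NeuN+ Ogg1-/- and Macrod2 in NeuN- DKO had adjusted p of 0.062, 0.061 and 0.051 with it.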
